A study of Mus musculus with 3 samples.

Results

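Expression of the chemokines and their receptors was examined in cell fractions of mouse epididymal fat. The members were taken by gene name from the array annotation, as every gene whose symbol begins with Ccl, Cxcl, Ccr or Cxcr and a number, together with Cx3cl1, Cx3cr1, Xcl1, Xcr1, Pf4 and Ppbp. This gave 57 of the 37073 genes on the arrays, 38 ligands and 19 receptors, read by 78 probes. The fat came from male C57/BL mice aged 20 weeks and was digested with collagenase. After a spin of 1 s at 9 g, the cells in the lower phase were the stromal vascular cells (SVC). A second spin of the floating layer, 3 min at 226 g, left mature adipocytes (MA) floating and small proliferative adipocytes (SPA) as the sediment. SVC and SPA were grown in DMEM to 90% confluency before RNA was taken and no culture is described for MA, so in every comparison with MA the culture and the kind of cell cannot be told apart. The sample titles also give MA another date than SVC and SPA, and that difference cannot be told apart from the fraction either. The sources do not say how many animals gave each RNA. Each fraction was measured once, on 1 Agilent 1-colour array, and all 3 arrays lie on 1 slide, so no difference below has a replicate check and no test was run.

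Chemokines are small secreted proteins that guide leukocytes along gradients by binding G protein-coupled receptors on the migrating cell. They are named by the spacing of their conserved cysteines (CC, CXC, CX3C and XC), and many sit in gene clusters of closely related neighbours. In fat they are known mainly for drawing monocytes and other leukocytes into the tissue, and both adipocytes and stromal cells can secrete them.

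The arrays read each gene with 60-base probes, and closely related chemokines could share a stretch of probe. The longest run of bases that a member's probe shared with the probe of another member was 7 to 14 bases, with a median of 9 over the 78 probes. Probes were compared only with each other, so this cannot show whether a probe matches another part of a related transcript. The first 30 bases of the probes on which the main results rest are given 5′ to 3′ on the sense strand, with their mm9 positions from the array annotation. No annotation of that build was used, so the exon is not given.
Ccl12 (chr11:81916710-81916739, + strand): tccttgaaccttcatgtctaggctgagagt
Cxcl5 (chr5:91190490-91190519, + strand): gctgagatatttagatgtctgtagtgtgtc
Cxcl1 (chr5:91322080-91322109, + strand): cgctcgggacagagacgttcaaaggactgt
Cxcl2 (chr5:91334534-91334563, + strand): atagttggaaggtgatacatttttaaacct
Cxcl9 (chr5:92752221-92752250, - strand): atgggatttcattattaacttgatcccatc
Cxcl10 (chr5:92775811-92775840, - strand): gctttgcattgtatatggaagaacttgtgt
Ccl24 (chr5:136046515-136046544, - strand): ttaggggatgtgtttattctgtgagaacct
The longest run was 13 bases for the probe of Ccl12, shared with the probe of Ccl8, its neighbour on chromosome 11, and the values of these genes moved in opposite directions between SVC and SPA.

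Levels are given as the log2 of the processed signal relative to the 75th percentile of its array, so that 0 is the signal of that percentile. A level can be compared between arrays for a gene, not between genes, because probes differ in brightness. Ratios are differences of these levels, and the error after ± is that of the spots by the error model of the scanner software, which does not cover the spread between mice or cultures. Its median for the members was 0.15 on the log2 scale on each array. The scanner software marks each spot that stands well above background. A spot without the mark has only a bound, which was taken against the dimmest marked probe of its array (at -4.95 in SVC, -5.14 in SPA and -5.15 in MA) or against the probe's own level where that was higher. Probes spotted 10 times on an array had a median SD of 0.0395 to 0.0497 on the log2 scale.

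The 3 fractions carried many of the same chemokine transcripts, at a share near that of all genes, and MA carried the most. Of the 57 members, SVC had 35 that were well above background, SPA had 33 and MA had 45, and 32 passed on all 3 arrays. These are 61.4% of the members in SVC, 57.9% in SPA, 78.9% in MA and 56.1% on all 3. The shares over all genes were 56.996%, 59.97%, 60.39% and 53.58%, so only the MA share of the members stood well above that of all genes. A further 12 members passed in MA alone, which is 21.1% of the members, beside 4.11% of all genes. They were the ligands Cxcl9, Cxcl13, Ccl19, Ccl21a, Cxcl3, Ccl1 and Xcl1 and the receptors Ccr2, Ccr6, Ccr9, Ccr10 and Cxcr5. Ccl20 passed in SVC alone, at -4.78, just above the lowest level that could pass there. The members that did not pass on any array were Ccl22, Ccl26, Ccl28, Cxcl15, Cxcl17, Ccr1l1, Ccr4, Cxcr1, Cxcr2 and Xcr1. Cxcr2, the main receptor of the neutrophil-attracting CXC ligands, and Cxcr1 were thus not well above background where several of those ligands were.

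**Figure D1:**
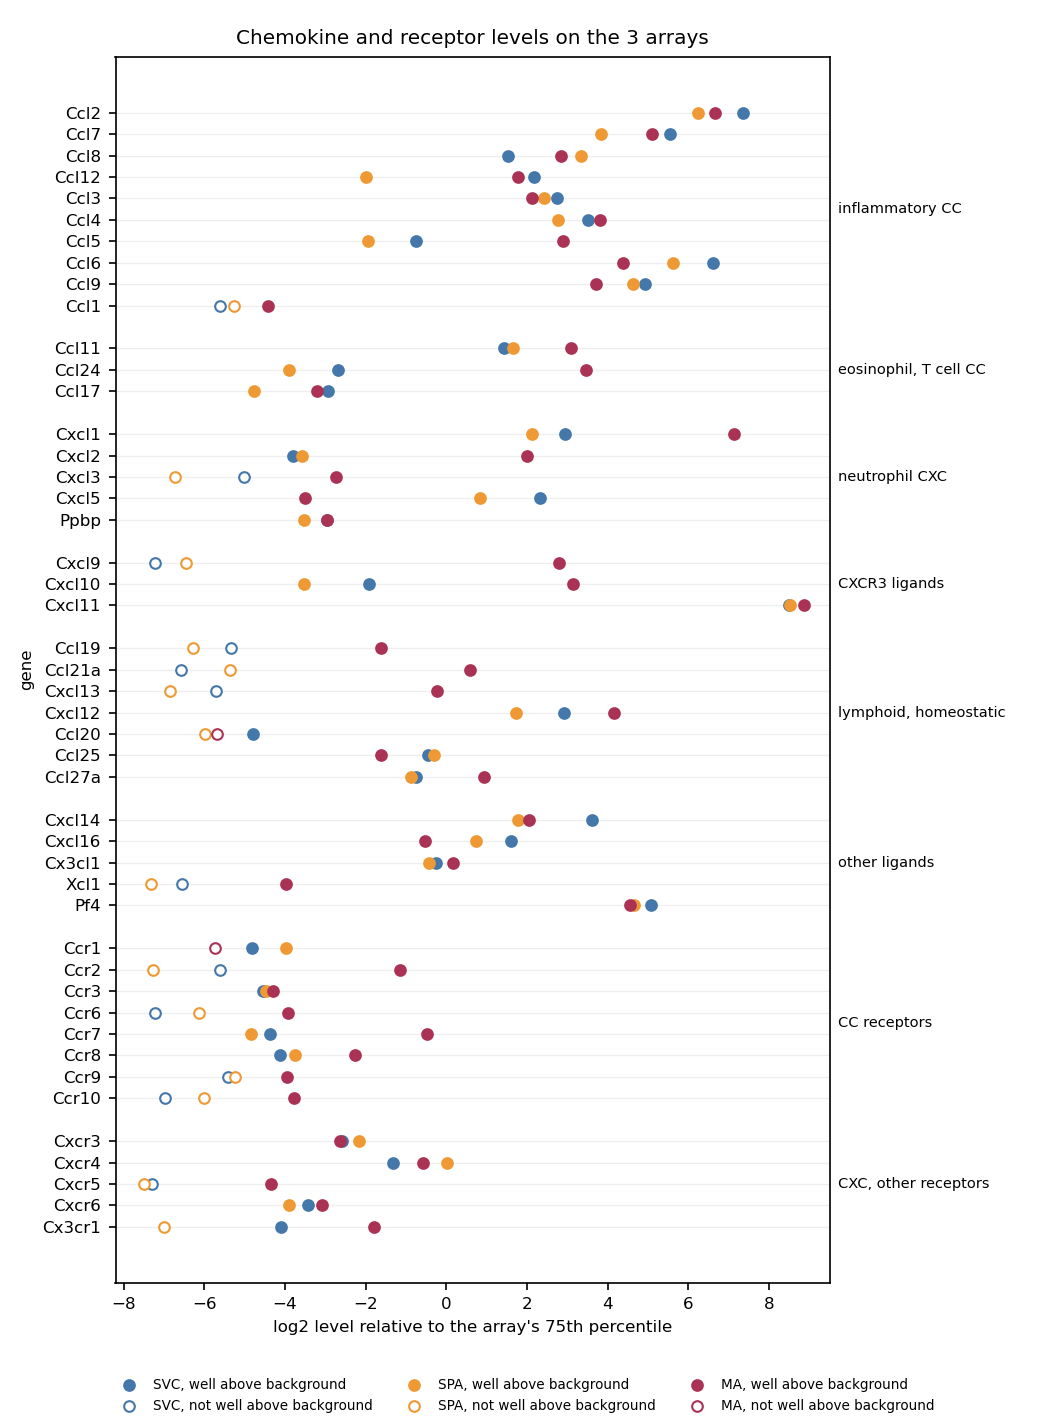
Levels of 46 of the 47 members that were well above background on at least 1 array, on the log2 scale against each array's own 75th percentile (x axis), with 1 row for each gene, grouped by role. Filled points were well above background and open points were not. The MA point of Cxcl9, Cxcl10, Ccl24, Cxcl1 and Cxcl2 lies far to the right of the other points of its gene, and that of Cxcl5 lies to the left.

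The fractions were checked against markers of the cells they could hold. All 6 adipocyte markers were at least 5-fold higher in MA than in SPA, and in SPA 4 of the 6 (Adipoq, Plin1, Cidec and Fabp4) exceeded SVC by the same limit. Adipoq and Plin1 were not well above background in SVC. Macrophage markers were present on each array, where SVC had 10 of 10 well above background, SPA had 9 and MA had 10, with a summed level, in multiples of the 75th percentile, of 535 in SVC, 587 in SPA and 194 in MA. A sum of this kind follows the brightest probes, here Lyz2, which was at a log2 level of 8.74 in SVC, 8.81 in SPA and 6.94 in MA. In these bulk samples fewer cells of a type and less RNA per cell cannot be told apart.

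Between SPA and SVC the chemokines were mostly lower in SPA, by modest amounts, with 1 large difference. Of the 35 members that could be compared, 0 were at least 5-fold higher in SPA and 1, Ccl12, was at least 5-fold lower. The shares over all genes were 0.322% and 0.353%. At a 2-fold limit, 11 of the 35 (of 57 in all) were lower and 2 were higher, where 3.25% and 3.9% of all genes were. The median log2 ratio of the 33 members measured on both arrays was -0.47, beside 0.05 for 20698 genes in all. Of these members 23, or 69.7%, were lower in SPA, beside 44.0% of all genes.

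Ccl12 encodes a ligand of the monocyte receptor CCR2. Its level was 2.17 in SVC, -1.98 in SPA and 1.77 in MA. It was low in SPA alone. SPA stood 17.8-fold below SVC, a log2 ratio of -4.15 ± 0.21, and MA stood 13.4-fold above SPA, at 3.75 ± 0.21. MA and SVC differed by a log2 ratio of -0.41 ± 0.20.

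The other CCR2 ligands in the same gene cluster were lower in SPA too, but far less so. Ccl2, the best known monocyte attractant of fat, was at 7.36 in SVC, 6.24 in SPA and 6.67 in MA. This put SPA 2.17-fold below SVC, with the local background of the SPA spot marked as outlying. Ccl7 was at 5.55 in SVC, 3.84 in SPA and 5.10 in MA, 3.29-fold lower in SPA than in SVC. Ccl8, which lies beside Ccl12, went the other way. Its level was 1.53 in SVC, 3.35 in SPA and 2.84 in MA, so that SPA stood 3.54-fold above SVC, and it had the highest ratio of any member in this comparison.

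Some markers of other cells moved between SVC and SPA in the same direction as Ccl12, and others did not. Of 5 mesothelial markers, 4 (Msln, Upk3b, Lrrn4 and Krt19) were at least 5-fold lower in SPA than in SVC and at least 5-fold higher in MA than in SPA. The summed level of the list was 19.1 in SVC, 5.63 in SPA and 19.4 in MA, and all 5 were well above background on each array. The macrophage markers were divided. C1qa was at 2.68 in SVC, -0.50 in SPA and 2.99 in MA, and C1qb was at 1.66, -0.83 and 2.79 on the same arrays. Cd68, by contrast, had log2 ratios of 0.88 for SPA over SVC and -3.10 for MA over SPA. Adgre1, Csf1r and Lyz2 were nearly level between SPA and SVC, with log2 ratios of 0.06, 0.25 and 0.07. Over the 9 macrophage markers measured on both arrays the median was -0.46, and 2 (C1qa and C1qb) were at least 5-fold lower in SPA. The neutrophil marker S100a9 was at -2.43 in SVC, not well above background in SPA and at 0.20 in MA, whereas S100a8 was higher in SPA than in SVC by a log2 ratio of 2.57. All 5 fibroblast markers had lower values in SPA than in SVC, with log2 ratios from -1.63 for Col1a1 to -0.47 for Pdgfra and a median of -1.43, and 0 of the 5 were at least 5-fold lower. None of the 6 endothelial or 8 lymphocyte markers was at least 5-fold apart between SPA and SVC. Their median log2 ratios were 0.18 (6 measured on both arrays) and 0.16 (3 measured on both). The part of any of these cells in the values of Ccl12 and of the other ligands lower in SPA was not tested.

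The remaining members at least 2-fold lower in SPA than in SVC were ligands of several kinds and 1 receptor. Cxcl14, a ligand made by stromal and epithelial cells, was at 3.62 in SVC, 1.79 in SPA and 2.06 in MA, and Ccl17, a ligand of the T cell receptor CCR4, was at -2.94, -4.77 and -3.20. Both were 3.57-fold lower in SPA than in SVC. The ratio was 3.04-fold for Cxcl10, 2.80-fold for Cxcl5, 2.32-fold for Ccl24, 2.31-fold for Ccl5 and 2.28-fold for Cxcl12. Cx3cr1, the fractalkine receptor of monocytes and macrophages, was at -4.10 in SVC and not well above background in SPA, at least 2.05-fold lower. Besides Ccl8, the member at least 2-fold higher in SPA was Cxcr4, the receptor of CXCL12, at -1.32 in SVC, 0.03 in SPA and -0.57 in MA (2.54-fold). Cxcl12 and its receptor thus had ratios of opposite sign.

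**Figure D2:**
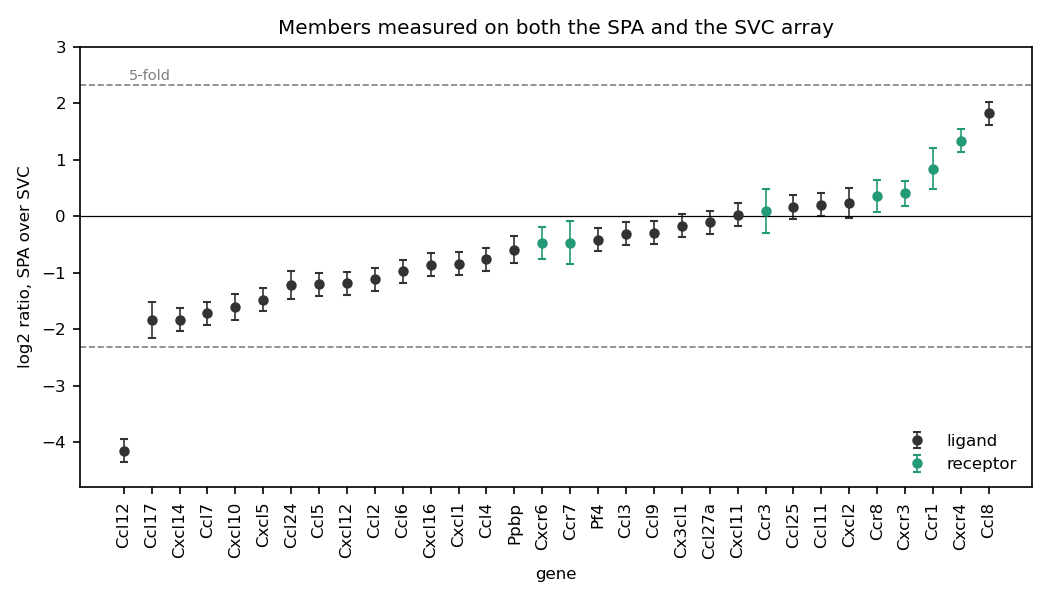
Log2 ratio of SPA over SVC (y axis) for 32 of the 33 members measured on both arrays, ordered by the ratio, with ligands and receptors in different colours. Bars are the error of the spots by the error model of the scanner software and dashed lines mark 5-fold. Ccl12 lies alone below the lower line, and 22 of these 32 lie below 0.

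At the 5-fold limit MA differed from SPA in many more chemokines, nearly all of them higher in MA. More of all genes passed that limit in this comparison too. Of the 46 members that could be compared, 15 were at least 5-fold higher in MA and 1, Cxcl5, was at least 5-fold lower. The shares over all 23956 genes compared were 5.49% and 3.98%. Of the 15, 8 were measured on both arrays and 7 were bounds, which could pass only through their level in MA. The median log2 ratio of the 32 members measured on both arrays was 0.59, beside -0.08 for all genes. Their middle 50% ran from -0.36 to 1.95, wider than the -0.71 to 0.52 of all genes. Of these 32 members 21 were higher in MA and 11, or 34.4%, were lower, beside 53.7% of all genes.

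Against SVC, 11 of 47 members were at least 5-fold higher in MA and 1 was lower, beside 5.74% and 3.97% of all genes. The 11 were Ccl5, Ccl24, Cxcl1, Cxcl2, Cxcl9, Cxcl10, Ccl19, Ccl21a, Cxcl13, Ccr2 and Ccr7, and each of them was also at least 5-fold higher than in SPA. The median log2 ratio of MA over SVC was 0.30 for the 33 members measured on both arrays, beside -0.07 for all genes. Of these members 18 were higher in MA and 15, or 45.5%, were lower, beside 52.9% of all genes. Both comparisons use the same MA array. The other 4 members that passed against SPA were Ccl12, Cxcl12, Cxcl3 and Cx3cr1, with log2 ratios of MA over SVC of -0.41 and 1.22 for Ccl12 and Cxcl12, at least 2.21 for Cxcl3 and 2.31 for Cx3cr1. The 5-fold limit lies at a log2 ratio of 2.32, so Cx3cr1 was just short of it against SVC, and Cxcl3 (at least 2.39) and Cxcl12 (2.41) were just past it against SPA.

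**Figure D3:**
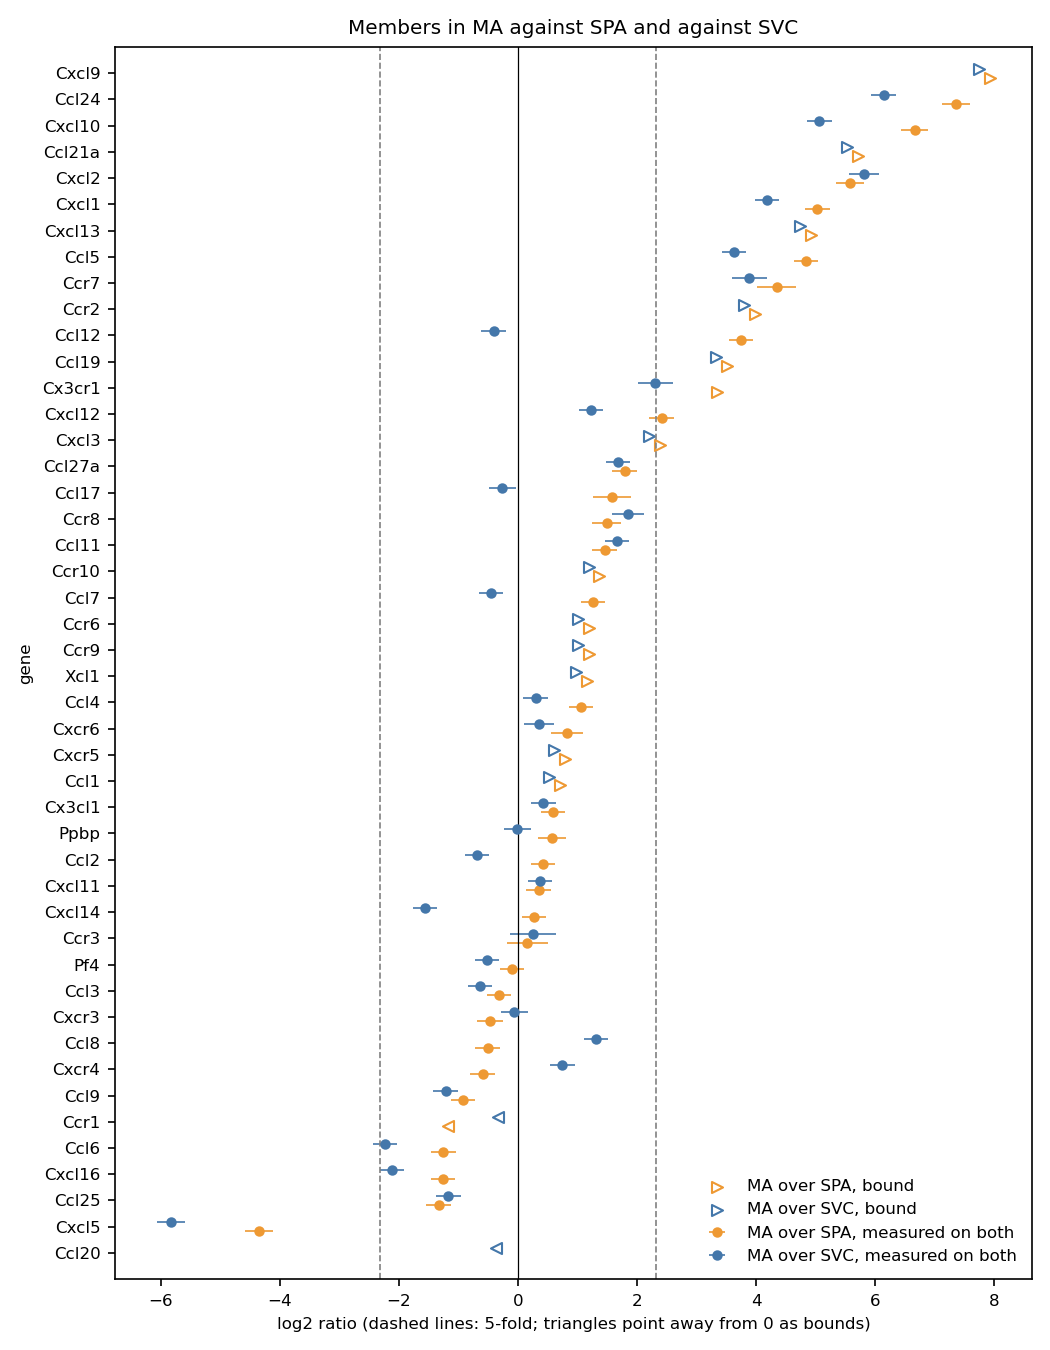
Log2 ratios of MA over SPA and of MA over SVC (x axis) for the members reported here that could be compared in at least 1 of them, ordered by the ratio to SPA. Circles were measured on both arrays, with the error of the spots by the error model as bars. Open triangles are bounds, and dashed lines mark 5-fold. Cxcl9, Ccl24 and Cxcl10 lie highest, and Cxcl5 lies alone below the lower line.

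Ligands of CXCR3, a receptor of activated T cells, were divided in MA. Cxcl9 was at 2.80 in MA and not well above background in SVC (-7.23) or SPA (-6.46). This made MA at least 245-fold higher than SPA and at least 216-fold higher than SVC. Cxcl10 was measured on all arrays, at -1.92 in SVC, -3.52 in SPA and 3.14 in MA, 102-fold higher in MA than in SPA and 33.4-fold higher than in SVC. Its other probe was well above background in MA alone, at -2.02. Cxcl11, the third ligand, was nearly level, at 8.50 in SVC, 8.53 in SPA and 8.88 in MA, and its other probe was level too, at 2.36, 2.49 and 2.61. These probes start close together on mm9 (92788567 and 92788640) and yet differ widely in brightness. Whether the signal of the brighter one comes from Cxcl11 alone was not tested. Cxcr3 itself was at -2.58 in SVC, -2.17 in SPA and -2.64 in MA, under 2-fold apart in every pair.

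The CXC ligands that attract neutrophils split as well. Cxcl1 was at 2.96 in SVC, 2.11 in SPA and 7.14 in MA, and MA stood 32.7-fold above SPA with a log2 ratio of 5.03 ± 0.20. Cxcl2 was at -3.81, -3.57 and 2.01, 47.9-fold higher in MA than in SPA, with the local background marked as outlying for the SPA and the MA spot. Cxcl3 was at -2.74 in MA and not well above background in SVC or SPA, at least 5.25-fold higher than in SPA. For these ligands the MA array was the high one, and the SVC and SPA arrays lay close together where they were measured.

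Cxcl5, which attracts the same cells, had the reverse pattern. Its level was 2.33 in SVC, 0.85 in SPA and -3.50 in MA, lower in each fraction than in the one before. MA stood 20.3-fold below SPA, with a log2 ratio of -4.35 ± 0.24, and 56.9-fold below SVC, at -5.83 ± 0.24. It was the member with the lowest ratio in both comparisons. Ppbp, the platelet member of this group, was at -2.95, -3.54 and -2.96 and differed by under 2-fold. Neutrophil markers did not move as a list. Of 6, 1 (S100a9, by a log2 ratio of at least 5.34) was at least 5-fold higher in MA than in SPA and none was lower, with a summed level of 3.97 in SVC, 10.4 in SPA and 6.49 in MA, and Ngp was not well above background on any array. Their part in these values was not tested.

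Ccl24 encodes a ligand of CCR3, the main receptor of eosinophils, and had the largest ratio among members measured on both arrays. It was at -2.69 in SVC, -3.90 in SPA and 3.45 in MA, 164-fold higher in MA than in SPA (7.36 ± 0.24) and 70.6-fold higher than in SVC (6.14 ± 0.21). Ccl11, another CCR3 ligand, was at 1.44, 1.64 and 3.10, which is 2.74-fold higher in MA than in SPA. Ccr3 was near the limit of detection on all arrays, from -4.56 to -4.30.

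Of the inflammatory CC ligands in the second cluster on chromosome 11, Ccl5 was the 1 that stood apart. Ccl5, typical of T cells and NK cells, was at -0.74 in SVC, -1.95 in SPA and 2.89 in MA, 28.6-fold higher in MA than in SPA and 12.4-fold higher than in SVC. Ccl4 was at 3.52, 2.76 and 3.82, 2.08-fold higher in MA than in SPA, and its other probe gave a like log2 ratio (1.08 beside 1.06). Ccl3, its neighbour, was at 2.75, 2.43 and 2.11. Ccl6 and Ccl9, ligands found in rodents and typical of myeloid cells, were highest in SVC and lowest in MA. Ccl6 was at 6.61, 5.63 and 4.38, so that MA stood 4.69-fold below SVC, and Ccl9 was at 4.92, 4.62 and 3.70.

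The ligands that organise lymphoid tissue were read in MA alone. Ccl21a, a ligand of CCR7, was at 0.58 in MA, at least 52.6-fold higher than in SPA and at least 46.3-fold higher than in SVC. Its probe also matches transcripts of the near-identical gene models Gm1987, Gm10591 and Gm13304, so the signal cannot be assigned to Ccl21a alone. Ccl19, the other CCR7 ligand, was at -1.62 in MA, at least 11.4-fold higher than in SPA. Cxcl13, the ligand of the B cell receptor CXCR5, was at -0.22 in MA, at least 30.2-fold higher than in SPA. Ccr7 was higher in MA as well, at -4.37 in SVC, -4.83 in SPA and -0.48 in MA (20.4-fold over SPA, 4.35 ± 0.33). Its other probe was well above background in MA alone, with bounds of only 3.80-fold over SPA and 3.34-fold over SVC. Cxcr5 was at -4.35 in MA, which gives a bound of only 1.73-fold.

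The monocyte receptors Ccr2 and Cx3cr1 were likewise highest in MA, and Ccr1 was not. Ccr2 was at -1.16 in MA and not well above background in SVC (-5.60) or SPA (-7.26), at least 15.7-fold higher than in SPA and at least 13.9-fold higher than in SVC. Its ligands Ccl2 and Ccl7 were well above background on all arrays, including those where the receptor was not. Cx3cr1 was at -4.10 in SVC and -1.79 in MA, 4.95-fold higher than in SVC and at least 10.1-fold higher than in SPA. The other probe of Cx3cr1 was well above background in MA alone, at -4.34, which gives a bound of only 1.73-fold over SPA. The ligand Cx3cl1 was at -0.26, -0.43 and 0.17. Ccr1 was the 1 receptor read in SVC (-4.81) and SPA (-3.97) but not in MA.

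Of the lists of other cell types, the endothelial one was higher in MA than in SPA as a whole, and the others were divided. All 6 endothelial markers were at least 5-fold higher in MA than in SPA, with log2 ratios from 2.74 for Pecam1 to 4.24 for Cdh5, and their summed level was 2.13 in SVC, 2.46 in SPA and 29.6 in MA. Of 8 lymphocyte markers, 3 were at least 5-fold higher in MA (Cd2, Cd3d and Nkg7, the last by a log2 ratio of at least 5.28), and none was lower. Their summed level was 3.63 in SVC, 3.90 in SPA and 5.73 in MA, with Cd79a not well above background on any array and Cd3g, Ncr1, Cd2 and Nkg7 so in MA alone. Of 10 macrophage markers, 4 were at least 5-fold higher in MA than in SPA (C1qa, C1qb, Aif1 and Cd163) and 1, Cd68, was lower, with log2 ratios of -1.96 for Adgre1 and -1.87 for Lyz2. Cd163 was at -4.39 in SVC, not well above background in SPA and at 1.70 in MA. Of 5 fibroblast markers, 2 were at least 5-fold higher in MA than in SPA (Lum, by a log2 ratio of 4.77, and Col3a1, by 2.87) and none was lower, with -2.05 for Pdgfra. Their summed level was 236.8 in SVC, 107.02 in SPA and 363.6 in MA. Of 5 platelet markers, none was at least 5-fold apart in any pair, where Pf4 was at 5.06, 4.65 and 4.55. The part of these cells in the chemokine values of MA was not tested.

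Cxcl12, a ligand that holds blood stem cells and lymphocytes in tissues, depended on the probe. The brighter probe was at 2.93 in SVC, 1.74 in SPA and 4.15 in MA, 5.33-fold higher in MA than in SPA. The other probe, annotated to another transcript of the gene, was at 2.43, 0.54 and 0.05, lower in MA than in SVC by a log2 ratio of -2.38 and lower than in SPA by -0.49. The probes lie at different places of the gene, and their first 30 bases were as follows.
Cxcl12, brighter probe (chr6:117131227-117131256, + strand): aggagaaggcagcttcctatatgcagcgtg
Cxcl12, other probe (chr6:117125026-117125055, + strand): gctgtaaacctcctaccgtatgtgggaatt
Both probes read Cxcl12 lower in SPA than in SVC, by -1.19 and -1.89. Over the 9 members with several probes measured in both MA and SPA, the probes had the same sign for 5, and the widest gap was the 2.91 of Cxcl12. Cxcl16, whose probes gave MA over SVC log2 ratios of -2.12 and -0.33, was the next widest in MA over SPA, at 1.60.

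Members with moderate or small differences made up the rest. Ccl27a was at -0.76 in SVC, -0.87 in SPA and 0.92 in MA, and 2 of its 3 probes also match Ccl27b and other near-identical copies. Those 2 gave log2 ratios of MA over SVC of 1.68 and 1.93, and the probe that matches Ccl27a alone gave -0.11. Ccr8 was at -4.12, -3.76 and -2.27, 2.81-fold higher in MA than in SPA. Ccl25 was lower in MA, at -0.46, -0.29 and -1.63. Ccr6, Ccr9, Ccr10, Xcl1 and Ccl1 were read in MA alone, from -4.43 to -3.76, so close to the limit that their bounds over SPA ran only from 1.64-fold for Ccl1 to 2.59-fold for Ccr10. The 8 members under 2-fold in all pairs were Ccl3, Ppbp, Cxcl11, Cx3cl1, Pf4, Ccr3, Cxcr3 and Cxcr6.

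Chromosome 5 holds 13 members, chromosome 11 holds 14 and chromosome 9 holds 12, and 21 of the 57 lie in the 4 ligand clusters plotted here. Some neighbours in a cluster had like values and others did not. On chromosome 5, Cxcl5, Ppbp, Pf4, Cxcl3, Cxcl15, Cxcl1 and Cxcl2 lie in this order within 144 kb, and the cluster held both the lowest MA over SPA ratio (Cxcl5, -4.35) and some of the highest (Cxcl1, 5.03, and Cxcl2, 5.58). Pf4, 11.8 kb from Cxcl5, had a ratio of -0.10. Cxcl9, Cxcl10 and Cxcl11 lie within 36.4 kb, and the ratios were at least 7.93, 6.67 and 0.35. On chromosome 11, Ccl12 and Ccl8 are neighbours 13.4 kb apart by their probes, with SPA over SVC ratios of -4.15 and 1.82. In the other cluster there, Ccl5 had a MA over SPA ratio of 4.84 and the other 4 genes lay between -1.25 and 1.06.

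**Figure D4:**
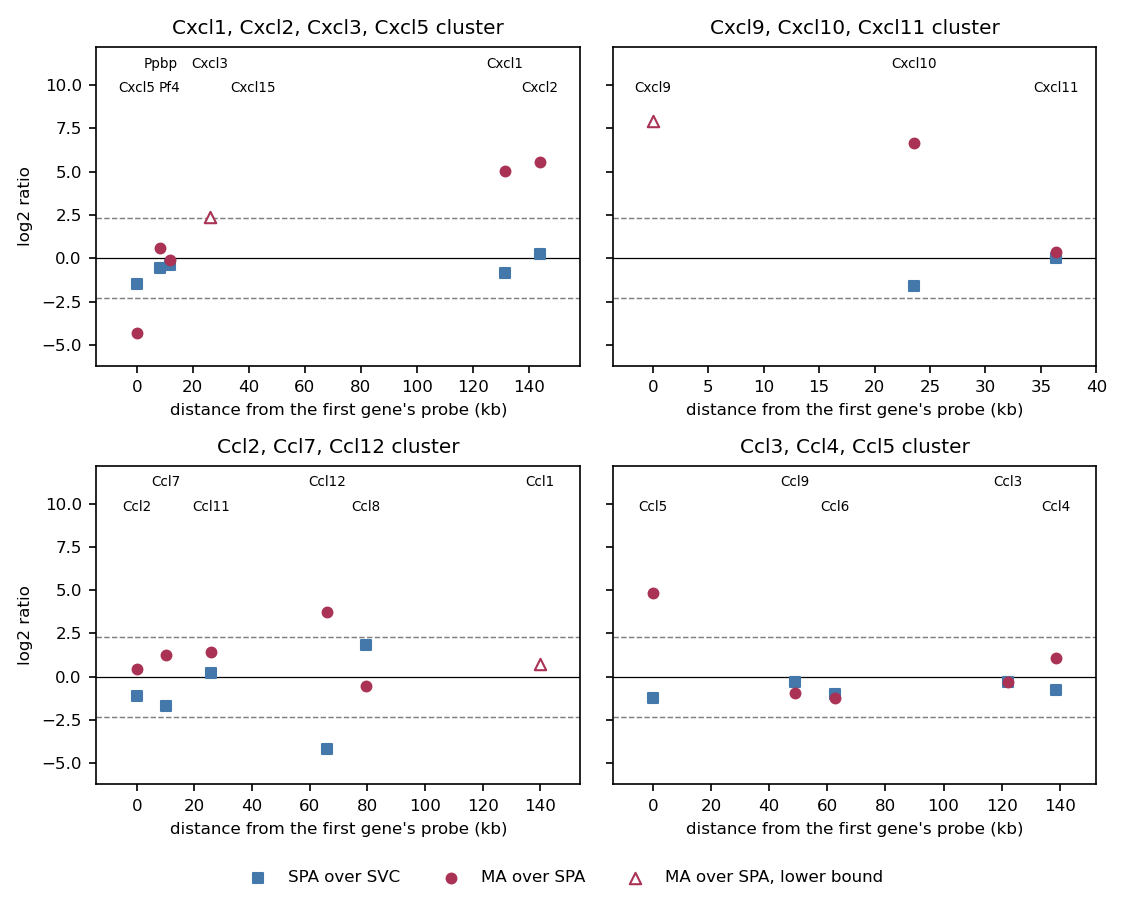
Log2 ratios of SPA over SVC and of MA over SPA (y axis) for the members of 4 gene clusters, by distance in kb from the first gene's probe on mm9 (x axis), with gene names above. Open triangles are lower bounds, dashed lines mark 5-fold, and a gene without a symbol could not be compared. In each cluster, at least 1 pair of neighbouring genes had ratios on different sides of 0 or of the 5-fold lines.

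The stretches before the gene starts were searched for the letters of 2 known regulatory motifs, since many of the ligands higher in MA are known targets of NF-kappaB or of interferon. RefSeq promoter windows (GRCm38.p6) were given for 42 of the 57 members, 46 windows in all, and the 250 bases before each start were read on both strands. GGNNTTTCC, as in NF-kappaB sites, was found in 8 of 46 member windows (17.4%), beside 4.93% of all 32851 windows, and GAAANNGAA, as in interferon-stimulated response elements, in 8 (17.4%) beside 7.13%. No match of one motif overlapped one of the other in these windows. Of the 15 members at least 5-fold higher in MA than in SPA, 12 had a window, and 5 of the 12 held the first motif and 4 the second. Among the 34 windows of the other members, 3 (8.82%) held the first and 4 (11.8%) the second. The split of the members comes from these same arrays, and no test was run. A match is a description of letters and says nothing of binding in these cells.

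Cxcl1, Cxcl2 and Cxcl3, all higher in MA, held the same 9 letters. These began 70 bases before the start in Cxcl1, 72 in Cxcl3 and 96 in Cxcl2. Cxcl1 (89 to 81, opposite strand) and Cxcl2 (77 to 69) each held another NF-kappaB-like match with other letters, not shown. The shared match is in capitals in stretches of 30 bases, written 5′ to 3′ on the strand of the gene.
Cxcl1 (chr5:90891165-90891194, + strand, 70 to 62 bases before the start): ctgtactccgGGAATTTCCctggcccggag
Cxcl2 (chr5:90903793-90903822, + strand, 96 to 88 bases before the start): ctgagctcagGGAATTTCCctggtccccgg
Cxcl3 (chr5:90786019-90786048, + strand, 72 to 64 bases before the start): agctgcggggGGAATTTCCccagcccgggc
Cxcl9 and Cxcl10, which had the highest MA over SPA ratios among the CXC ligands, held both motifs. The NF-kappaB-like match nearest the start of Cxcl9, the match of Cxcl10 on the opposite strand, and their interferon-type matches are shown.
Cxcl9, NF-kappaB-like (chr5:92328102-92328131, - strand, 42 to 34 bases before the start): ggaaggaaaaGGGATTTCCtaaataaatat
Cxcl10, NF-kappaB-like (chr5:92349028-92349057, - strand, 158 to 150 bases before the start): gaggggagagGGAAATTCCaagttcatggg
Cxcl9, interferon-type (chr5:92328235-92328264, - strand, 175 to 167 bases before the start): ccgtttatgtGAAATGGAAgtagaacatgc
Cxcl10, interferon-type (chr5:92349083-92349112, - strand, 213 to 205 bases before the start): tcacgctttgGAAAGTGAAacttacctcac
Members without a 5-fold difference held them too. Ccr3 and Ccl9 held the first motif, and Cxcl14 and Ccl3 held the second.

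Other genes of the chemokine system were read from fixed lists. Among 11 atypical receptors and modulators, which bind, scavenge or trim chemokines, 5 were at least 5-fold higher in MA than in SPA and 1 was lower. The shares over all genes were 5.49% and 3.98%. None differed so between SPA and SVC, where only 0.322% of all genes were higher and 0.353% lower. Ackr1, which binds many inflammatory chemokines on venules and red cells, was at -3.55 in SVC, -2.66 in SPA and 1.52 in MA. The scavenger receptor Ackr2 was at -3.78, -3.51 and 0.10, and Ackr3, which takes up CXCL12, was at 1.77, 1.43 and 4.32. Ccrl2 had a MA over SPA log2 ratio of 3.52. Cd74, a receptor of the cytokine MIF, had one of 5.10 while Mif itself was at 6.61, 6.95 and 3.53, lower in MA by -3.42 against SPA. Rarres2, which encodes the attractant chemerin made by adipocytes, was at 2.78, 4.37 and 6.60, higher in each fraction than in the one before.

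Of 24 genes of the signals that induce chemokines, 7 were at least 5-fold higher in MA than in SPA and none was lower, beside 5.49% and 3.98% of all genes, with a median log2 ratio of 1.07 over the 21 measured on both. Il1b was at 2.88 in MA and not well above background in SVC or SPA, at least 8.01 above SPA on the log2 scale. Il6 was at 0.97, -0.85 and 4.37. Nfkbiz and Nfkbia, which NF-kappaB itself induces, had MA over SPA log2 ratios of 4.27 and 2.98, the interferon-induced Irf1 one of 3.10 and Rel one of 2.56, and Il1a was at least 2.35 above SPA. The subunits Nfkb1 and Rela had ratios of 0.08 and 0.56, and the receptors Tlr4, Il1r1 and Ifngr2 had ratios of -0.59, -0.48 and -0.35. Of 23 genes that carry the signal of chemokine receptors, none was at least 5-fold higher in MA than in SPA and 2, Rac2 (-3.10) and Vav1 (-2.72), both typical of blood cells, were lower. Their median log2 ratio was -0.86, beside -0.08 for all genes.

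**Figure D5:**
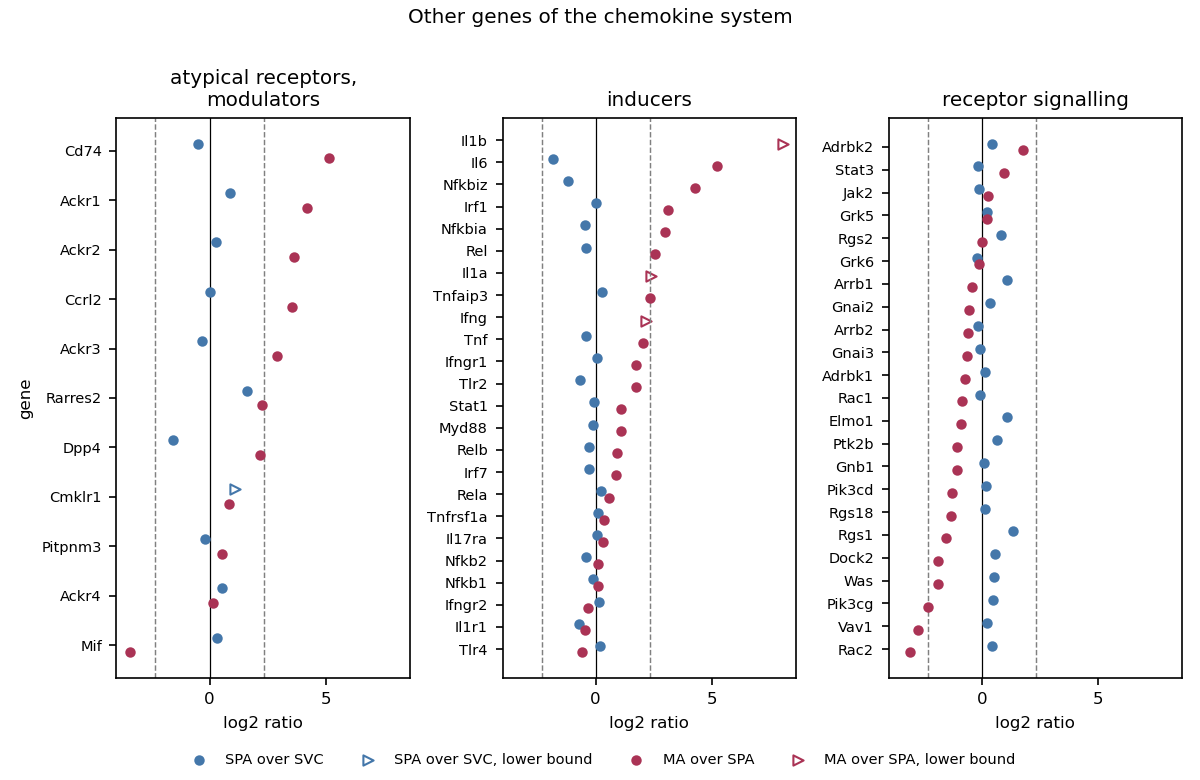
Log2 ratios of SPA over SVC and of MA over SPA (x axis) for the atypical receptors and modulators, the inducers of chemokines and the signalling genes of chemokine receptors, 1 row for each gene, ordered by MA over SPA. Open triangles are lower bounds and dashed lines mark 5-fold. Cd74, Ackr1, Il1b and Il6 lie far to the right in MA over SPA, and Mif, Rac2 and Vav1 lie past the line on the left.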

How the data were processed

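SVC, SPA and MA were each measured on 1 Agilent SurePrint G3 mouse array, with Cy3 cRNA made from 50 ng of RNA. The intensity deposited by the authors is that of Agilent Feature Extraction 10.7.3.1, per the submitters' processing notes, with the background subtracted and the array detrended, and comes with its error and the raw and background signals. The authors also deposited ratios, which are this signal over a constant of the array. The study's methods name GeneSpring and a 5-fold rule.

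Each array was scaled to its 75th percentile over spots that are not controls (a processed signal of 430 in SVC, 439 in SPA and 366 in MA), and outlier spots were left out. No member spot was an outlier or saturated. The probe with the highest mean level stood for a gene. A gene was compared where at least 1 array of the pair was well above background. Every member past 5-fold in any pair is named, and the other lists are given as counts with examples. The members and lists were chosen with earlier results of these data known. There was 1 array in each group, so no statistical test between groups was run. The 5-fold calls were also run on simulated arrays, where probes above a set level were shifted by more than 5-fold with little noise. That checks the calculation only. It says nothing of probes that start dim or of the spread between mice or cultures. The alternatives were normexp (offset 50), the deposited ratios, quantile normalization, scaling over detected probes, other filters on dim probes, other choices of probe, and leaving out spots with an outlying local background. Names of transcripts came from RefSeq (GRCm38.p6), and accessions of 72 of the 78 probes were found there. Python 3.11.15, pandas 2.3.3, numpy 2.4.6, matplotlib 3.10.9, R 4.3.3 and limma 3.58.1 were used. Protein sequences were not used here, and results for some genes are not reported here.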

Additional observations from a re-analysis of the deposited data

How the results depend on the processing

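Of the 29 named ratios past 5-fold, none changed its sign under those of the 9 alternatives that gave it a value (17 had one when only members measured on both arrays were counted, and 27 when spots with an outlying local background were left out), and 9 values fell short of 5-fold, 7 of them with the normexp correction (Ccl19, Ccr2, Cx3cr1 and Cxcl3 over SPA, and Ccl19, Ccr2 and Ccr7 over SVC) and 2 with the median of the probes (Cx3cr1 and Cxcl12 over SPA). Several of the alternatives could not weaken a named ratio. The deposited ratios are the same signal over a constant, which the scaling removes. Keeping only members measured on both arrays leaves their ratios as they are. Dropping the filter can only widen a bound, and the probe with the largest ratio cannot give a smaller one. For these, the unchanged sign is no check. Counting only members measured on both arrays, with no bounds, 8 members were at least 5-fold higher in MA than in SPA and 6 than in SVC. Without a filter on dim probes, 2 were at least 5-fold lower in SPA than in SVC, and with the probe of the largest ratio 2 were at least 5-fold lower in MA than in SVC. The median log2 ratio of members for SPA over SVC was -0.30 with normexp, -0.59 with quantile normalization and -0.31 without the filter. For MA over SPA it was 0.42 with normexp, 0.70 with quantile normalization, 0.67 with the percentile over detected probes, 0.80 without the filter and 0.50 with the median of the probes, and for MA over SVC it was 0.20 with normexp and 0.37 without the filter. The cause of these shifts was not tested. No paired analysis was possible because each group holds 1 sample. Leaving out spots with an outlying local background removed Cxcl2, and no other member past 5-fold was affected. The number of arrays limits every value, and the background limits dim probes to bounds.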
